A study of Mus musculus with 6 samples.

Results

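The genes described here are the transcription factor Atf4, its partners and targets, the enzymes and carriers that supply cells with amino acids, and the cytosolic tRNA synthetases. They were chosen by name, 45 of the 21959 genes in the deposited table, and fall into 8 regulators, 11 enzymes of amino acid and one-carbon metabolism, 9 amino acid transporters and 17 synthetases. All 45 had a row. For 29 the symbol matched directly, and 16 synthetases were listed under an older symbol (Aars for Aars1 and so on) and were matched through RefSeq synonyms.

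When amino acids run short, proteins misfold in the endoplasmic reticulum or heme is lacking, kinases phosphorylate the initiation factor eIF2, and most translation slows while that of the Atf4 mRNA increases. ATF4 protein then binds DNA with other leucine zipper proteins and activates genes for amino acid synthesis, amino acid import and tRNA charging, and, under lasting stress, genes such as Ddit3 that can favour cell death. Serine made by Phgdh, Psat1 and Psph gives glycine and 1-carbon units to the mitochondrial folate enzymes, which feed purine synthesis and the NADPH supply. Because much of the control of ATF4 lies in translation, the mRNA counts analysed here do not measure the amount of the protein.

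The 6 libraries came from wild-type cells labelled HL-1, a mouse line derived from atrial muscle. In the phillyrin group (3 libraries) the cells received 50 µg/mL phillyrin, a lignan glucoside, for 8 h beforehand and for 16 h together with oxygen-glucose deprivation followed by reoxygenation (OGD/R). In the OGD/R group (3 libraries) they underwent OGD/R alone. OGD/R consisted of 4 h in glucose-free medium under hypoxia and 24 h of reoxygenation in complete medium, and both groups carry the same batch label. The 16 h with phillyrin are shorter than the 24 h of reoxygenation. Which part of OGD/R they covered is not resolved here. The comparison addresses how phillyrin alters transcript levels under OGD/R, and neither vehicle-treated nor unstressed cells were analysed here. The effect of the solvent therefore cannot be told apart from that of phillyrin. Library totals ran from 14761317 to 22123648 counts. Of 16 atrial muscle markers 10 stayed below 0.5 CPM (counts scaled to a common library total) in every library, and Myh6, Actn2 and Mybpc3 had no count, so the cells are called by their label only. Summed marker levels lay between 860 and 911 CPM with phillyrin and between 821 and 840 CPM with OGD/R for the atrial list, between 515 and 547 against 578 and 593 CPM for 8 skeletal myoblast genes, and between 1808 and 1960 against 2284 and 2325 CPM for 8 fibroblast genes, of which Lum had no count. The myoblast and fibroblast sums combine genes that moved both ways (edgeR adjusted p under 0.05, passed by 31.7% of all tested genes). Of 5 myoblast genes tested 1 was higher and 3 were lower with phillyrin (80% called). Of 6 fibroblast genes tested 1 was higher and 3 were lower (66.7% called). The log2 fold changes of the latter (phillyrin minus OGD/R) ran from -0.74 to 1.70. Of 6 atrial genes tested 1 was higher and 0 were lower (16.7% called). Endothelial and macrophage lists (6 genes each) summed to at most 1.35 and 4.27 CPM with phillyrin and 1.11 and 3.19 CPM with OGD/R, with Kdr, Emcn, Adgre1 and Itgam at 0 throughout. Mitochondrial transcripts took between 3.49% and 4.27% of the counts with phillyrin and between 3.18% and 3.30% with OGD/R. The part of these differences in the results below was not tested, and in such bulk libraries fewer cells of a type and less RNA per cell cannot be told apart.

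ATF4 and C/EBP proteins bind together to composite sites whose core is TGATGNAA. RefSeq promoters (build GRCm38.p6, 250 bases before and 50 after the transcript start) were at hand for 32 of the 45 genes. The core, read on both strands, was present in 11 of these genes (34.4%), or in 11 of their 38 promoters (28.9%), against 3.97% of all 32851 promoters. The 45 genes were chosen by name around ATF4 and its targets, so a higher share among them is no independent result. The E-box CACGTG, which shares at most a few bases with this core, was found in 5 of the 38 (13.2%) against 7.15% of all promoters. The following stretches hold a core before the start site. They are shown because their genes were called in both directions with phillyrin, or, for Aars1, not called. The capitals mark the core, which reads TTNCATCA where it lies on the opposite strand.
Chac1 (chr2:119351029-119351076, plus strand): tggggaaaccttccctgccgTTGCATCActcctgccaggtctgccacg
Nupr1 (chr7:126625553-126625600, minus strand): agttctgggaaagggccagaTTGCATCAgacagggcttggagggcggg
Asns (chr6:7693210-7693252, minus strand): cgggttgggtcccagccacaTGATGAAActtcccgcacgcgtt
Pycr1 (chr11:120643824-120643871, minus strand): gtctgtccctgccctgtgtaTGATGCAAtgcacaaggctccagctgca
Gars1 (chr6:55037951-55037998, plus strand): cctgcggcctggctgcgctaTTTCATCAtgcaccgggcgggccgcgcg
Tars1 (chr15:11399659-11399693, minus strand): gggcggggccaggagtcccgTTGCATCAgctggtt
Aars1 (chr8:111033710-111033757, plus strand): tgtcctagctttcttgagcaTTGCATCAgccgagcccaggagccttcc

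Of the 11 genes with a core anywhere in the window, 4 were higher with phillyrin (Asns, Pycr1, Gars1 and Tars1), 2 were lower (Chac1 and Nupr1) and 5 were not called (edgeR adjusted p under 0.05, a threshold that 31.7% of all tested genes passed). Of the 21 genes without one, 10 were higher, 2 were lower and 9 were not called. A match describes letters in a window and does not show that a factor bound there.

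With phillyrin 9 of the 11 enzymes of the list rose by small amounts, the stress genes Ddit3 and Chac1 fell, Atf5 rose, and Atf4 itself did not pass the test. All 45 genes were abundant enough to be tested by quasi-likelihood in edgeR, at a threshold of 0.05 for the p-value adjusted over all 11658 genes tested. With phillyrin 17 of the 45 were higher and 6 lower, which is 51.1%, against 31.7% of all tested genes, of which 16% were higher and 15.6% lower. Their median log2 fold change (phillyrin minus OGD/R) was 0.08, beside -0.01 over all genes, and the single values ran from -0.46 to 0.51. Without regard to sign the median was 0.11 for the 45 genes and 0.14 for all tested genes. By class it was 0.19 for the regulators, 0.15 for the enzymes, 0.04 for the transporters and 0.10 for the synthetases. The share called therefore does not measure the size of the changes. The groups did not overlap for 27 of them, 21 higher and 6 lower. Of all tested genes 43.1% had groups that did not overlap, 21.5% higher and 21.6% lower. Scaled by library size alone, 13 of the 45 were higher and 9 lower, and of all genes 1313 were higher and 2455 lower in place of 1871 and 1823. Whether the libraries of a group stem from separate cultures is not stated in the labels, so that p-values here measure only the spread among 3 libraries, which may be technical.

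**Figure D1:**
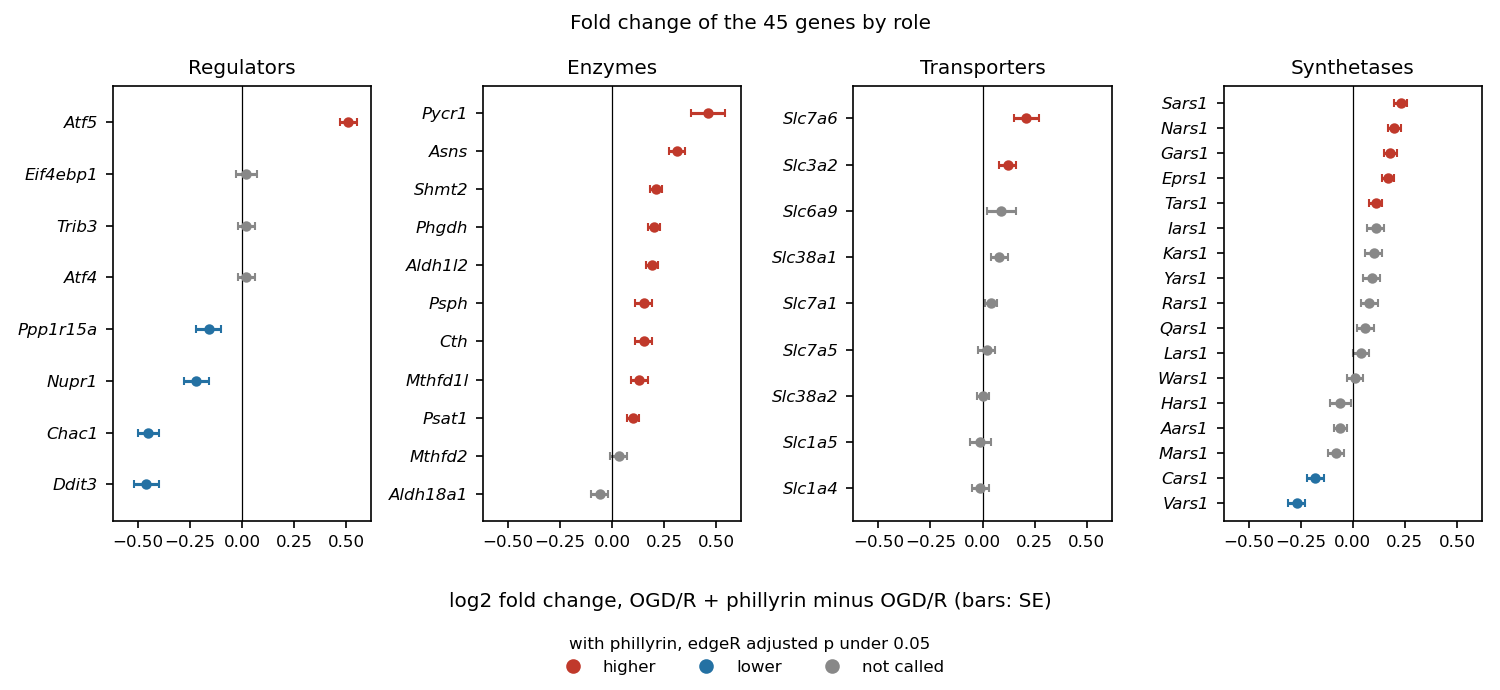
Log2 fold change (OGD/R + phillyrin minus OGD/R) of the 45 genes in 4 panels by role, with SE bars; red and blue points passed an edgeR adjusted p of 0.05 and grey ones did not. Of 11 enzymes 9 lie right of 0 in red, whereas 4 of 8 regulators lie left of 0 in blue and 7 of 9 transporters are grey.

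Among the regulators 1 rose, 4 fell and 3 were not called (62.5% called, against 31.7% of all genes), with a median log2 fold change of -0.07. Atf4 (ENSMUSG00000042406, GRCm39 chromosome 15, 80139385 to 80141742) stood at 899, 919 and 842 CPM in the phillyrin libraries and at 906, 870 and 849 CPM in the OGD/R libraries. The groups overlapped, and the log2 fold change of 0.02 had a 95% interval from -0.05 to 0.09 (SE 0.04, edgeR adjusted p = 0.707). Atf5 (ENSMUSG00000038539, chromosome 7, 44461680 to 44466082), a related leucine zipper factor whose translation is also favoured when eIF2 is phosphorylated, had 263, 273 and 245 CPM with phillyrin, against 187, 180 and 182 CPM with OGD/R. Every phillyrin library was above every OGD/R library, and the log2 fold change of 0.51 (with SE 0.04, edgeR adjusted p = 8.34e-13) was the highest among the 45 genes. Its span overlaps Nup62 and Il4i1 on the other strand. Whether the counting separated the strands where genes share bases is not given in the sources used here. Of the 45 genes 11 overlap a gene on the other strand and 2 overlap one on the same strand. Those not named elsewhere are Ppp1r15a (Tulp2), Hars1 (Hars2), Wars1 (Wdr25), Yars1 (C77080) and, on the same strand, Aars1 (Exosc6).

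Ddit3 (ENSMUSG00000025408, chromosome 10, 127126643 to 127132157), which encodes the factor CHOP, had 45.6, 43.7 and 41.3 CPM with phillyrin, against 59.2, 61.8 and 58.9 CPM with OGD/R, a log2 fold change of -0.46 (with SE 0.06, edgeR adjusted p = 1.2e-07). Chac1 (ENSMUSG00000027313, chromosome 2, 119181710 to 119184862), an enzyme that degrades glutathione and a target of the ATF4 and CHOP branch, had 88.3, 93 and 88.6 CPM with phillyrin, against 127, 123 and 118 CPM with OGD/R (log2 fold change -0.45 with SE 0.05, edgeR adjusted p = 8.51e-10). For both genes all phillyrin libraries lay below all OGD/R libraries. Ddit3 and its neighbour Mars1 overlap at their ends on opposite strands, and a further row named Ddit3, which lies within the first, had 0 counts in every library.

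Nupr1, a small stress-induced chromatin protein, had 139, 113 and 121 CPM with phillyrin, against 138, 145 and 151 CPM with OGD/R (log2 fold change -0.22 with SE 0.06, edgeR adjusted p = 0.00538). Phillyrin replicate 1 lay within the OGD/R range, and without phillyrin replicate 3 the call was lost (adjusted p = 0.0601). Ppp1r15a, the GADD34 subunit that directs a phosphatase to eIF2, had 59.7, 67.8 and 61.6 CPM with phillyrin, against 70.8, 67.9 and 72.9 CPM with OGD/R (log2 fold change -0.16 with SE 0.06, edgeR adjusted p = 0.0313). Its groups nearly touched, and the call did not hold on omission of OGD/R replicate 1 (edgeR adjusted p = 0.077), of OGD/R replicate 3 (0.144), of phillyrin replicate 1 (0.176) or of phillyrin replicate 3 (0.0816), nor with DESeq2 (adjusted p = 0.0664). The pseudokinase Trib3, which restrains ATF4 in a feedback, and the translation repressor Eif4ebp1 each had a log2 fold change of 0.02, with 95% intervals from -0.06 to 0.10 and from -0.07 to 0.11.

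**Figure D2:**
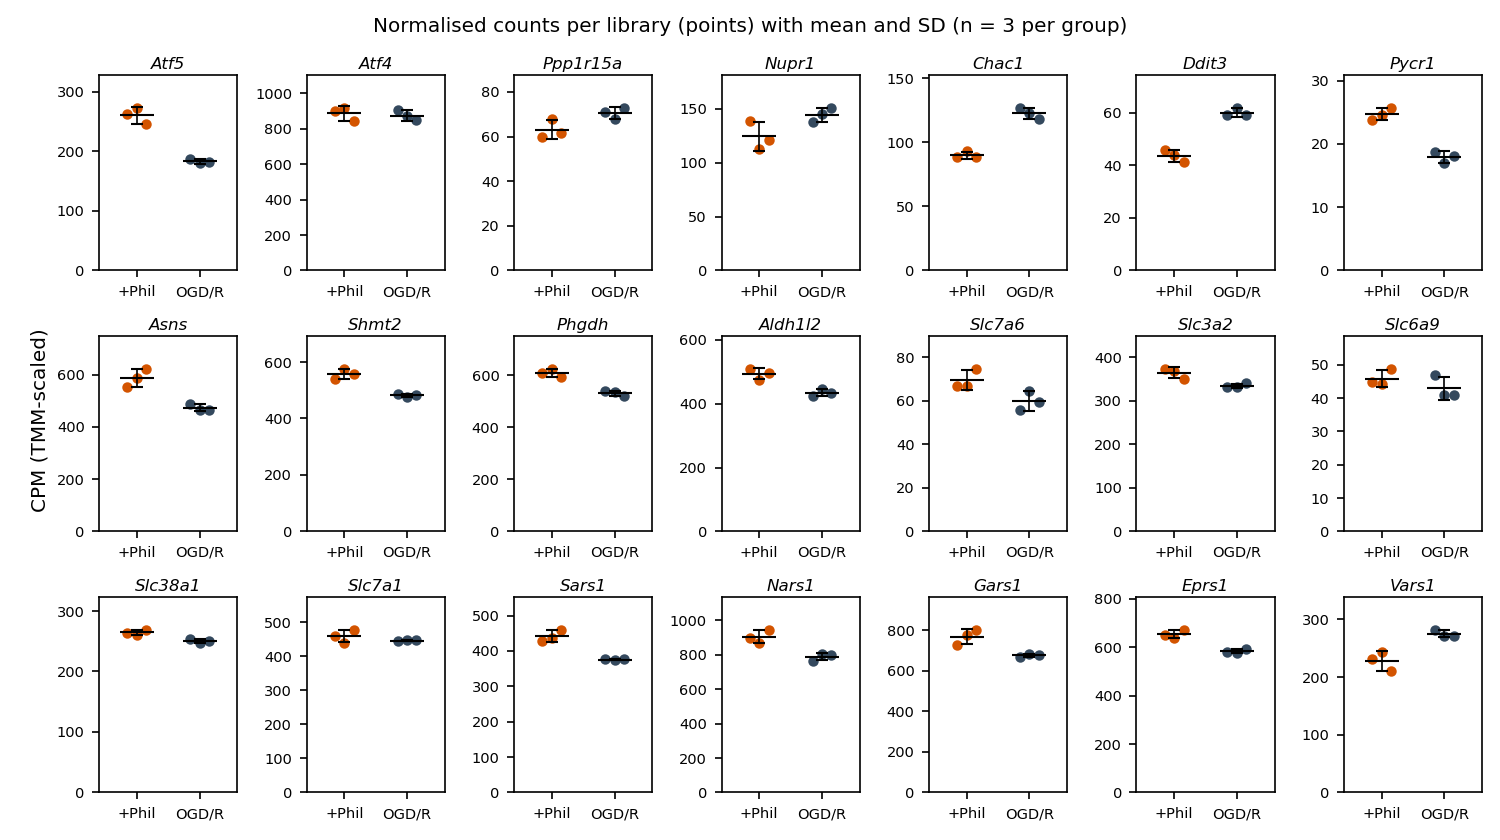
TMM-scaled CPM of 21 genes in each library (points, OGD/R + phillyrin on the left and OGD/R on the right of each panel, y axis from 0) with the group mean and SD (n = 3 each). Atf5, Asns and Pycr1 are higher with phillyrin and Ddit3 and Chac1 lower without overlap, whereas the points of Atf4 overlap.

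Of the 11 enzymes 9 rose, 0 fell and 2 were not called, so that 81.8% passed the test, against 31.7% of all genes. Their median log2 fold change was 0.15. Asns (ENSMUSG00000029752, chromosome 6, 7675169 to 7693254), which makes asparagine from aspartate and glutamine, had 555, 586 and 623 CPM with phillyrin, against 489, 464 and 467 CPM with OGD/R, a rise of 24.1% (log2 fold change 0.31 with SE 0.04, edgeR adjusted p = 1.93e-08). Pycr1, the mitochondrial enzyme of the last step of proline synthesis, was the least abundant of the 45 genes per length and had 23.8, 24.5 and 25.7 CPM with phillyrin, against 18.7, 16.9 and 18.1 CPM with OGD/R (log2 fold change 0.46 with SE 0.08, edgeR adjusted p = 4.08e-05). Neither gene showed an overlap between the groups. Aldh18a1, which makes the precursor of the same pathway, was at a log2 fold change of -0.06 (95% interval -0.13 to 0.02). It passed as lower when scaled by library size alone (edgeR adjusted p = 0.0275) or without phillyrin replicate 3 (0.0473).

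The serine pathway was higher at each of its 3 steps. Phgdh (ENSMUSG00000053398, chromosome 3, 98220486 to 98247306), the first and committed enzyme, had 609, 624 and 594 CPM with phillyrin, against 538, 535 and 520 CPM with OGD/R (log2 fold change 0.20 with SE 0.03, edgeR adjusted p = 1.31e-05). Psat1, the aminotransferase that follows, was at 0.10 (SE 0.03, edgeR adjusted p = 0.0257) and Psph, the phosphatase that releases serine, at 0.15 (SE 0.04, edgeR adjusted p = 0.00369). Psat1 missed the threshold on omission of OGD/R replicate 1 (edgeR adjusted p = 0.0569), of OGD/R replicate 2 (0.145), of OGD/R replicate 3 (0.0844) or of phillyrin replicate 3 (0.103) and when scaled by library size alone (0.204), although all 3 phillyrin libraries stood above all OGD/R libraries. Psph overlaps Cct6a on the other strand.

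Of the mitochondrial folate enzymes among the 45 genes 3 rose and 1 was not called, where 31.7% of all tested genes were called. Shmt2, which splits serine into glycine and a 1-carbon unit and overlaps Ndufa4l2 on the other strand, had 540, 576 and 558 CPM with phillyrin, against 487, 476 and 484 CPM with OGD/R (log2 fold change 0.21 with SE 0.03, edgeR adjusted p = 6.21e-06). Aldh1l2, which oxidises formyl-tetrahydrofolate and overlaps Nopchap1 on the other strand, had 509, 475 and 496 CPM with phillyrin, against 425, 445 and 432 CPM with OGD/R (log2 fold change 0.19 with SE 0.03, edgeR adjusted p = 6.71e-05). The lowest phillyrin library exceeded the highest OGD/R library for both. Mthfd1l, which releases formate, was at 0.13 (SE 0.04, edgeR adjusted p = 0.00478, and 0.0543 when scaled by library size alone), and Mthfd2, the dehydrogenase between them, at 0.03 (95% interval -0.05 to 0.10). Cth, which makes cysteine from cystathionine, rose by 11.2% (log2 fold change 0.15 with SE 0.04, edgeR adjusted p = 0.00415).

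Of the 9 transporters 2 rose, 0 fell and 7 were not called, so that 22.2% passed, against 31.7% of all genes. Slc3a2, the heavy chain shared by several amino acid exchangers, had 373, 369 and 349 CPM with phillyrin, against 331, 331 and 340 CPM with OGD/R (log2 fold change 0.12 with SE 0.04, edgeR adjusted p = 0.00704). Its call was lost when scaled by library size alone (adjusted p = 0.0813) or without OGD/R replicate 2 (0.0514). Slc7a6, a light chain that exchanges cationic for neutral amino acids with sodium, had 66.8, 66.5 and 74.6 CPM with phillyrin, against 55.5, 64.6 and 59.3 CPM with OGD/R (log2 fold change 0.21 with SE 0.06, edgeR adjusted p = 0.00759, and 0.0781 without OGD/R replicate 1). For both transporters the groups did not overlap.

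The light chain of the main leucine carrier, Slc7a5, was at a log2 fold change of 0.02 with a 95% interval from -0.05 to 0.10. Slc38a2, the transporter of the list with the highest level per length and a sodium-coupled carrier of small neutral amino acids, was at 0.0018 (95% interval -0.06 to 0.07). Its relative Slc38a1 had 264, 261 and 269 CPM with phillyrin, against 253, 247 and 251 CPM with OGD/R. These groups did not overlap, but the adjusted p of 0.0875 (edgeR, log2 fold change 0.08, SE 0.04) missed the threshold. The arginine and lysine carrier Slc7a1 had 461, 440 and 478 CPM with phillyrin and 444, 448 and 447 CPM with OGD/R, with groups that overlapped (log2 fold change 0.04, 95% interval -0.03 to 0.11). The glycine carrier Slc6a9, which overlaps B4galt2 and Ccdc24 on the other strand, had 44.7, 44.1 and 48.8 CPM with phillyrin and 47, 41 and 40.8 CPM with OGD/R (log2 fold change 0.09, 95% interval -0.04 to 0.23). The exchangers of alanine, serine, cysteine and glutamine, Slc1a4 and Slc1a5, were both at -0.01, with 95% intervals from -0.10 to 0.07 and from -0.11 to 0.09.

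Of the 17 synthetases 5 rose, 2 fell and 10 were not called, so that 41.2% passed, against 31.7% of all genes, and their median log2 fold change was 0.08. Each of these enzymes loads 1 amino acid onto its tRNAs, except Eprs1, which serves both glutamate and proline. Sars1, for serine, had 429, 437 and 460 CPM with phillyrin, against 376, 374 and 377 CPM with OGD/R (log2 fold change 0.23 with SE 0.03, edgeR adjusted p = 1.53e-06). Nars1, for asparagine, had 898, 870 and 946 CPM with phillyrin, against 765, 803 and 801 CPM with OGD/R (log2 fold change 0.20 with SE 0.03, edgeR adjusted p = 2.69e-05). Both rose by similar amounts, 17.6% and 14.5%, with no overlap between groups.

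Gars1, for glycine, had 730, 776 and 803 CPM with phillyrin, against 668, 685 and 677 CPM with OGD/R (log2 fold change 0.18 with SE 0.03, edgeR adjusted p = 6.85e-05). Eprs1 had 651, 639 and 672 CPM with phillyrin, against 579, 577 and 592 CPM with OGD/R (log2 fold change 0.17 with SE 0.03, edgeR adjusted p = 0.000149). In both, each phillyrin library was above each OGD/R library. Tars1, for threonine, was at 0.11 (SE 0.03, edgeR adjusted p = 0.00867), a call lost without OGD/R replicate 2 (0.0836) or when scaled by library size alone (0.103).

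Vars1 and Cars1, for valine and cysteine, went the other way. Vars1 (ENSMUSG00000007029, chromosome 17, 35219963 to 35235298) had 231, 244 and 210 CPM with phillyrin, against 282, 272 and 271 CPM with OGD/R, so that all phillyrin libraries were lower (log2 fold change -0.27 with SE 0.04, edgeR adjusted p = 4.11e-06). Cars1 was at -0.18 (SE 0.04, edgeR adjusted p = 0.000242), again without overlap. Of the 10 synthetases not called, the values ran from -0.08 for Mars1 to 0.11 for Iars1, with Aars1 and Hars1 at -0.06, Wars1 at 0.01, Lars1 at 0.04, Qars1 at 0.06, Rars1 at 0.08, Yars1 at 0.09 and Kars1 at 0.10 between them. Scaled by library size alone, Aars1 and Mars1 passed as lower (edgeR adjusted p = 0.0142 and 0.0118). Iars1, Kars1 and Yars1 lay just short of the threshold (edgeR adjusted p = 0.0549, 0.0599 and 0.0538), and each passed as higher with RLE size factors (0.0389, 0.045 and 0.0396). Iars1 and Kars1 also passed without phillyrin replicate 1 (0.0242 and 0.0328) or phillyrin replicate 2 (0.00698 and 0.035), Yars1 without phillyrin replicate 1 (0.0411) or phillyrin replicate 3 (0.0188), and Rars1 without phillyrin replicate 2 (0.00916). Without phillyrin replicate 3, in which Iars1 stood at 413 CPM against 359 and 352 CPM in the other phillyrin libraries, the log2 fold change of Iars1 was 0.04 (edgeR adjusted p = 0.391). That of Kars1 was 0.07 without phillyrin replicate 3 and 0.08 without OGD/R replicate 1, with edgeR adjusted p of 0.204 and 0.24. The number of synthetases called higher was 8 without phillyrin replicate 1 or without phillyrin replicate 2.

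Averaged over the genes of a class, log2 CPM relative to the OGD/R mean was 0.15, 0.17 and 0.19 in the phillyrin libraries for the enzymes, against 0.01, -0.01 and 0.00 in the OGD/R libraries. For the transporters the phillyrin libraries stood at 0.06, 0.05 and 0.07 and for the synthetases at 0.04, 0.04 and 0.05, with OGD/R libraries between -0.01 and 0.01 in both. The regulators stood at -0.08, -0.06 and -0.14 with phillyrin, against 0.02, -0.02 and 0.00 with OGD/R, an average over genes that moved both ways.

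Levels of different genes were compared per length, as FPKM (counted reads scaled by gene length and library total, without TMM scaling). Such levels depend on the deposited gene lengths, which were 18102 bases for Eprs1 and 3109 bases for Shmt2. With phillyrin Eprs1 had the higher mean CPM (654 against 558 CPM). Over all libraries Eprs1 stood at 34.1 FPKM and Shmt2 at 167 FPKM. Atf4 was the most abundant of the 45 genes, at 370 ± 20 FPKM with phillyrin and 377 ± 13.1 FPKM with OGD/R (SD, n = 3 each), and its lowest library (348 FPKM) was above the highest of any other member (251 FPKM, Gars1). Gars1, Phgdh, Psat1, Nars1, Asns and Shmt2 followed, with means over all libraries from 231 to 167 FPKM. In this order 36 of the 44 neighbouring pairs had ranges that overlapped, so most neighbours are not separated. Among the transporters Slc38a2, Slc7a5 and Slc3a2 lay at 113, 105 and 98.8 FPKM over all libraries and Slc6a9 at 8.63 FPKM. Ddit3 (30.3 FPKM) and Ppp1r15a (22.8 FPKM) stood far below Atf4, and Pycr1 was the lowest, with libraries between 4.35 and 6.37 FPKM.

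**Figure D3:**
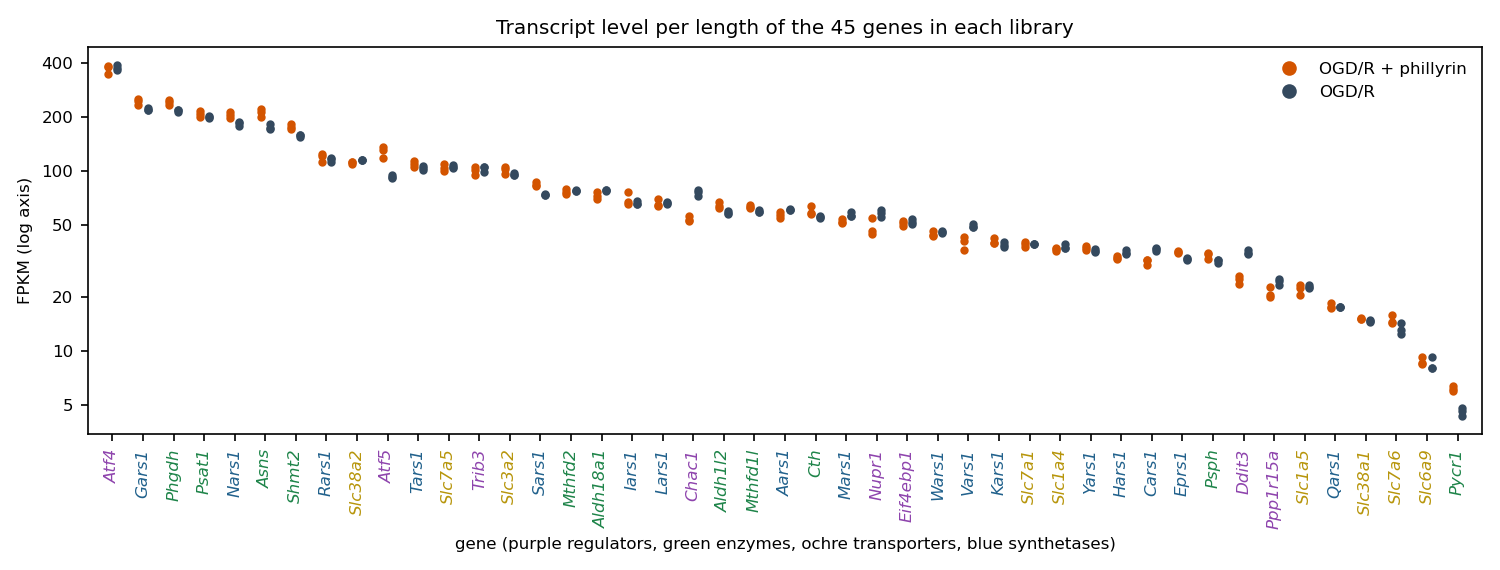
FPKM (log axis) of the 45 genes in each library, ordered by the mean over all libraries; orange points to the left are OGD/R + phillyrin and dark points to the right OGD/R. Atf4 stands alone at the top between 348 and 391 FPKM, Pycr1 at the bottom between 4.35 and 6.37 FPKM, and the groups stand apart for Atf5, Chac1 and Ddit3.

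Upstream of ATF4, of 17 genes for the eIF2 kinases, the regulators Gcn1 and Impact, eIF2, eIF2B, the phosphatase partner Ppp1r15b and the separate initiation factors Eif2a and Eif2d, 2 rose and 2 fell (23.5%, against 31.7% of all genes), with a median log2 fold change of 0.02. Impact competes with the amino acid sensing kinase GCN2 for the activator Gcn1. Impact fell to 61.6 ± 4.8 CPM with phillyrin, against 84.6 ± 3.9 CPM with OGD/R (SD, n = 3 each). Its log2 fold change was -0.46 (SE 0.06, edgeR adjusted p = 4.97e-08). Eif2ak4, the GCN2 kinase itself, was at 34.3 ± 1.32 CPM with phillyrin, against 40.6 ± 2.62 CPM with OGD/R (SD, n = 3 each; log2 fold change -0.25, edgeR adjusted p = 0.00532, and 0.0537 without OGD/R replicate 1). Ppp1r15b and Eif2s1 were the genes that rose, each at 0.12 (SE 0.04). Of these 2 calls, 0 were left without OGD/R replicate 2 or when scaled by library size alone, and 1 was left on omission of replicate 1 or replicate 3 of the OGD/R group or of phillyrin replicate 3. With scaling by library size alone, 4 genes of the list fell.

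Of 20 further partners and targets of ATF4, 7 rose and 3 fell (50% called, against 31.7% of all genes), with a median of 0.03. The cystine importer Slc7a11, also a target of NRF2, was at 239 ± 5.61 CPM with phillyrin, against 164 ± 1.16 CPM with OGD/R (SD, n = 3 each; log2 fold change 0.54 with SE 0.04, edgeR adjusted p = 3.52e-14). Xpot, which exports tRNA from the nucleus, was at 657 ± 18.6 CPM with phillyrin, against 541 ± 2.94 CPM with OGD/R (SD, n = 3 each; log2 fold change 0.28 with SE 0.03, edgeR adjusted p = 1.87e-08). The autophagy receptor Sqstm1, whose span shares bases with Mrnip, and the growth factor Vegfa rose by 0.36 and 0.20 on the log2 scale. The 3 that fell, named after their values were seen, were Sesn2, an inhibitor of mTORC1 that senses leucine (-0.28, SE 0.05, edgeR adjusted p = 1.86e-05), the stress factor Atf3 (-0.24, SE 0.06) and Herpud1, of protein degradation at the endoplasmic reticulum (-0.17, SE 0.05). Scaled by library size alone, 6 fell.

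Outside the mitochondrial enzymes above, one-carbon genes went both ways, with 3 of 20 tested higher and 6 lower (45% called, against 31.7% of all genes) and a median of -0.12. This list holds further genes of mitochondrial one-carbon metabolism, named after their values were seen. Slc25a32 was called higher (0.23). Mthfd2l (0.14), Gcsh (0.09), Dld (0.09), Mtfmt (-0.24), Amt (-0.44) and Gldc (-0.53) were not called. Tyms, thymidylate synthase, was at 41.7 ± 2.3 CPM with phillyrin, against 54.5 ± 1.91 CPM with OGD/R (SD, n = 3 each; log2 fold change -0.39 with SE 0.06, edgeR adjusted p = 5.06e-06). Mat2a, which makes S-adenosylmethionine, rose by 0.25 (SE 0.04, edgeR adjusted p = 6.31e-07).

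Among 18 other amino acid enzymes tested, 4 rose and 1 fell (27.8% called, below the 31.7% of all genes). Ass1, of arginine synthesis, was at 38.5 ± 1.78 CPM with phillyrin, against 22.4 ± 1.53 CPM with OGD/R (SD, n = 3 each; log2 fold change 0.78 with SE 0.08, edgeR adjusted p = 1.54e-10). Glul, glutamine synthetase, which overlaps Teddm2, fell by 0.30 (SE 0.06, edgeR adjusted p = 0.000105). Bckdha, of branched-chain amino acid breakdown, was at 0.53 (SE 0.17, edgeR adjusted p = 0.015), a call that did not hold on omission of OGD/R replicate 1 (0.0877), of OGD/R replicate 2 (0.0862) or of phillyrin replicate 2 (0.202). Without phillyrin replicate 2 the list had 2 higher genes, and it had 2 lower genes on omission of OGD/R replicate 3 or of replicate 1 or 2 of the phillyrin group, and 3 when scaled by library size alone.

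Of 16 other amino acid transporters tested 0 rose and 6 fell (37.5% called, against 31.7% of all genes, of which 15.6% were lower), with a median of -0.10. Slc25a12, the mitochondrial aspartate and glutamate carrier, was at 51 ± 0.458 CPM with phillyrin, against 63 ± 1.66 CPM with OGD/R (SD, n = 3 each; log2 fold change -0.31 with SE 0.06, edgeR adjusted p = 5.35e-05). The taurine carrier Slc6a6 (-0.11), Slc38a6 (-0.24) and Slc43a2 (-0.37) were close to the threshold, with edgeR adjusted p of 0.0189, 0.0337 and 0.0368. When each library was left out in turn, between 1 and 4 genes of this list fell, with 1 on omission of OGD/R replicate 1 and 2 on omission of phillyrin replicate 1, and 2 fell with DESeq2.

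Of the cytosolic synthetases and scaffolds outside the 17, 3 of 6 rose and 0 fell (50% called, against 31.7% of all genes), namely Farsb, Eef1e1 and Aimp1, at 0.14, 0.17 and 0.14. Farsb overlaps Sgpp2 and Aimp1 overlaps Tbck, each on the other strand. Scaled by library size alone 0 rose, and 1 rose when OGD/R replicate 1 or replicate 3 was left out. Of 20 synthetases and amidotransferase subunits of mitochondria 3 rose and 4 fell (35% called, close to the 31.7% of all genes), with a median of -0.11. Tars2 was at 46.6 ± 2.5 CPM with phillyrin, against 56.7 ± 1.49 CPM with OGD/R (SD, n = 3 each; log2 fold change -0.28 with SE 0.06, edgeR adjusted p = 0.000371). Iars2, which overlaps Rab3gap2, was at -0.21 (SE 0.05), Vars2 at -0.34 (SE 0.10; edgeR adjusted p = 0.00799, and 0.0618 without phillyrin replicate 1) and Yars2 at 0.31 (SE 0.08). The number that rose was 1 without OGD/R replicate 2, and with scaling by library size alone it was 1, while 8 fell.

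**Figure D4:**
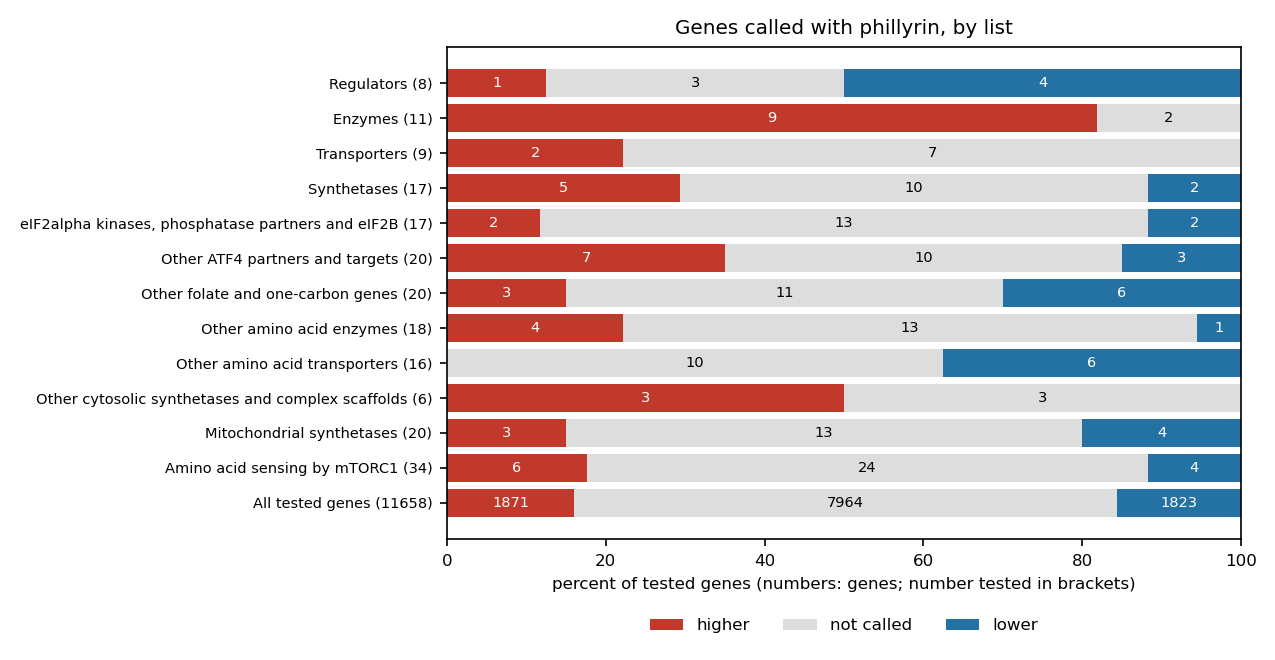
Share of tested genes called higher (red), not called (grey) and called lower (blue) with phillyrin for the 4 classes, 8 further lists and all tested genes, with the number of genes in each segment. The enzymes have the longest red segment (9 of 11), regulators and other transporters the longest blue ones (4 of 8 and 6 of 16).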

How the data were processed

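Per the labels, mRNA was captured on poly(T) beads and both ends of each fragment were read. Genome build GRCm39 and the programs featureCounts 2.0.3, HISAT2 2.2.1, DESeq2 1.34.0 and Trimmomatic 0.39 are named in the submitters' processing notes. How strand and multiply aligned reads were handled is not given in the sources used here. The deposited table holds a read count per gene and library. The FPKM values deposited by the authors equal that count over gene length and library total to within a relative difference of 2.43e-07, and served only for levels between genes. Columns were assigned by sample title.

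Counts were filtered with filterByExpr, scaled by TMM and tested with edgeR 4.0.16 (quasi-likelihood, robust; R 4.3.3), two-sided, with Benjamini-Hochberg adjustment over 11658 genes. SE is the size of the log2 fold change divided by the square root of F, and 95% intervals use the t distribution with the test's degrees of freedom. A prior count of 2 entered log2 CPM. The script was tested on simulated data of 11578 genes, of which 200 were changed. Of the 192 calls made there 19 were false. It recovered 64.2% of 67 genes changed by a factor of 1.25, 97% of 67 changed by 1.5 and 98.5% of 66 changed by 2. The share of genes changed in the simulation was far below the 31.7% called in these data, so its rates need not hold here. Some calls given here may still be false, and a gene not called may have changed by a small amount. An exact two-sided permutation test of 3 against 3 cannot go below p = 0.1, so none was used. Rows without a symbol took at most 0.00743% of a library. A count of 0 allows up to 3 counts, or 0.136 to 0.203 CPM by library, which covers counting error only.

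The alternatives comprised DESeq2 1.42.0 and limma-voom (limma 3.58.1) as other tools, RLE factors or library size alone for scaling, a mean of at least 1 CPM or no filter on low counts, each library left out in turn, and a block for the replicate number. The genes, lists and tests were chosen with earlier results of these data known. Values in every library are given for Atf4, Atf5, Ddit3, Asns and the 5 genes of each class with the smallest p, and of each further list the 4 genes with the smallest p are named. Some genes selected by this rule are not reported here.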

Additional observations from a re-analysis of the deposited data

How the results depend on the processing

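Over 13 alternatives, 16 of the 23 called genes among the 45 kept their call and direction under every one, 7 lost the call under at least one, and 0 changed direction. Of the 22 uncalled genes 7 passed under at least one. Scaled by library size alone, which moved the median of all genes from -0.01 to -0.06 on the log2 scale, 1 enzyme was lower, 1 transporter higher and 4 synthetases lower, and the log2 fold changes changed sign for Atf4 and Eif4ebp1 (-0.02 each), Mthfd2 and Slc7a5 (-0.02 each), Trib3 (-0.03), Slc7a1 (-0.0015), Slc38a2 and Wars1 (-0.04 each), none of which was called. With RLE factors or without a low-count filter 8 synthetases were higher. When each library was left out in turn, between 2 and 4 regulators were lower (2 without phillyrin replicate 3), 0 or 1 enzymes lower, 1 or 2 transporters higher, and 4 to 8 synthetases higher. In these fits values near 0 ranged from -0.0021 to 0.06 for Atf4, from -0.01 to 0.05 for Trib3, from -0.0018 to 0.06 for Eif4ebp1, from -0.00036 to 0.06 for Mthfd2, from -0.01 to 0.05 for Slc7a5, from -0.0002 to 0.01 for Slc38a2, from -0.03 to 0.02 for Slc1a4, from -0.03 to 0.03 for Slc1a5 and from -0.02 to 0.04 for Wars1. The cause was not tested.

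The deviations from the group mean of libraries that share a replicate number correlated at 0.00278, 0.00561 and 0.00322. Values near 0 over all genes cannot exclude a shared effect on few genes, and the same number does not state a pairing. With the replicate number as a block, 18 of the 45 genes were higher and 6 lower, and of all genes 1867 and 1842. The change is Iars1, which passed with the block (edgeR adjusted p = 0.0327). The depth, 14761317 counts or more, gave every one of the 45 genes enough counts to be tested.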

Other observations

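Genes by which mTORC1, the growth kinase complex, senses amino acids were counted from a further list. Of 34 tested, 6 rose and 4 fell with phillyrin (29.4%, against 31.7% of all genes), with a median log2 fold change of -0.07. Nprl3, a subunit of the GATOR1 complex that restrains mTORC1, which overlaps Mpg on the other strand, was at 23.7 ± 0.865 CPM with phillyrin, against 35.5 ± 3.95 CPM with OGD/R (SD, n = 3 each; log2 fold change -0.58 with SE 0.08, edgeR adjusted p = 3.05e-07). Sesn1, a stress-induced inhibitor of the same pathway, was at 11.3 ± 0.503 CPM with phillyrin, against 14.5 ± 0.306 CPM with OGD/R (SD, n = 3 each; log2 fold change -0.37 with SE 0.10, edgeR adjusted p = 0.00587). Lamtor2, of the Ragulator scaffold on lysosomes, rose by 0.35 (SE 0.08, edgeR adjusted p = 0.000799). Wdr59, of the GATOR2 complex, was at -0.26 (SE 0.08, edgeR adjusted p = 0.0114), a call that did not hold on omission of OGD/R replicate 2 (0.0655) or of phillyrin replicate 2 (0.0628). Scaled by library size alone, 2 genes of this list rose and 8 fell. The number that rose was 1 on omission of OGD/R replicate 1 and 3 on omission of OGD/R replicate 2 or of phillyrin replicate 2, and 2 fell without phillyrin replicate 2.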
